A study of Mus musculus with 6 samples.

Results

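The genes described here are 10 transcription regulators of late spermatocytes and round spermatids, Crem, Fhl5, Rfx1, Rfx2, Rfx3, Taf7l, Tbpl1, Sox30, Tcfl5 and Mybl1, of the 55536 genes in the table of read counts. They were chosen by name, from what is known of male germ cells, and not by a measured value. Earlier results of these data were known when they were chosen. RNA was sequenced from testes of 4-month-old male mice on the FVB/NJ background, with 1 library from each of 2 mice per genotype. The WT mice were unmodified FVB/NJ. The P2KO mice carried a gene trap in Padi2, in which the coding part of the first exon was replaced by LacZ and a neomycin resistance sequence. The DKO mice carried the same Padi2 allele and, in addition, a short frameshift deletion in the first exon of Padi4 that was made by CRISPR/Cas9 in Padi2 knockout embryos, and they descend from a single edited founder. Both alleles are inherited and so are present in every cell type of the testis.

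Male germ cells that leave meiosis switch on a large set of genes that somatic cells do not use, and they do so with their own versions of the transcription machinery. In pachytene spermatocytes A-MYB (Mybl1) and TCFL5 drive meiotic genes and the precursors of piRNAs, and in round spermatids the CREM activator, its partner FHL5, RFX2 and SOX30 switch on genes of the acrosome, the flagellum and the condensing nucleus. TBPL1, a relative of the TATA-binding protein, and TAF7L, a germ cell form of a TFIID subunit, belong to the general transcription machinery of these cells. Round spermatids are halted in mice without Crem, Tbpl1 or Sox30, and pachytene spermatocytes in mice without Mybl1.

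RFX proteins bind a sequence called the X-box and are known for switching on genes of the cilium and flagellum. The windows from 250 bases before to 50 bases after the RefSeq start site (GRCm38.p6) were therefore searched on both strands for a spaced form of the X-box (GT, any 2 bases, CC, any 3 bases, G, any 2 bases and AC) and for GTTGCC, a common core of one arm of it. A window was found for 8 of the 10 regulators, all but Crem and Mybl1. Each of the 3 RFX genes held GTTGCC, and Rfx2 also held the longer form. The longer form began 34 bases after the start site and matched the pattern on both strands. Neither string was found in the windows of Fhl5, Taf7l, Tbpl1, Sox30 and Tcfl5. Among 20150 windows of protein-coding genes, 12.4% held GTTGCC and 4.92% held the longer form. Strings for other factors were searched as well. The CRE, the site of CREM, was found in no regulator as TGACGTCA (2.31% of windows), and its core TGACG, which that string contains, was found in Rfx1 at 3 places and in Rfx2 at 1 (24.2% of windows). The E-box CACGTG was found in Taf7l (8.03% of windows), and AACAAT, a site of SOX proteins, in Fhl5 at 2 places (8.93% of windows). The windows of the RFX genes are shown because 3 of the 10 regulators are members of the family that binds these letters. That of Hydin, a gene of the flagellar axoneme whose counts are described with the cilium genes, is shown because it held both X-box strings, overlapping on the reverse strand just before the start site. Of the 8 genes that were called in the lists of partners and targets, 6 had a window, and the other 5 of them (Taf1, Prm1, Tnp1, Tnp2 and Tdrd1) held neither X-box string. Ift122 and Tdrd6 had no window. Capitals mark the letters that matched. The windows are chr8:84066586-84066885 on the plus strand for Rfx1, chr17:56830959-56831258 on the minus strand for Rfx2, chr19:28011117-28011416 on the minus strand for Rfx3 and chr8:110266727-110267026 on the plus strand for Hydin. A match is a description of the letters and does not show that a protein binds there.
Rfx1: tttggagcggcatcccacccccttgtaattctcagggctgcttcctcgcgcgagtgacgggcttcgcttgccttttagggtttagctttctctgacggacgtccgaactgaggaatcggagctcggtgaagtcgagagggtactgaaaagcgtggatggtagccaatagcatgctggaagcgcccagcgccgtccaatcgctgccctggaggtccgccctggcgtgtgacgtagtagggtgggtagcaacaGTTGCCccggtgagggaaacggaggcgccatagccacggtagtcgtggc
Rfx2: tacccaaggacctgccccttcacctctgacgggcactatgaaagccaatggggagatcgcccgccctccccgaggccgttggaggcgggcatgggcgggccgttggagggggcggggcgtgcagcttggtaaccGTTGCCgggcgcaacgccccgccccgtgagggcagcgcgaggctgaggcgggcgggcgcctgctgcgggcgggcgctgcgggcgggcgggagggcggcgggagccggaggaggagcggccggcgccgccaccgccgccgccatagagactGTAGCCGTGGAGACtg
Rfx3: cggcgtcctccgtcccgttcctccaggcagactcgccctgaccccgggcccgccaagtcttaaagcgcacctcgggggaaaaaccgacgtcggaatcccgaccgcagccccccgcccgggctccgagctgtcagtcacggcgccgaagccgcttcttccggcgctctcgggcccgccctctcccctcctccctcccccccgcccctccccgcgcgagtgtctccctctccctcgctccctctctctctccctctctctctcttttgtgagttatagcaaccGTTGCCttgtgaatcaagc
Hydin: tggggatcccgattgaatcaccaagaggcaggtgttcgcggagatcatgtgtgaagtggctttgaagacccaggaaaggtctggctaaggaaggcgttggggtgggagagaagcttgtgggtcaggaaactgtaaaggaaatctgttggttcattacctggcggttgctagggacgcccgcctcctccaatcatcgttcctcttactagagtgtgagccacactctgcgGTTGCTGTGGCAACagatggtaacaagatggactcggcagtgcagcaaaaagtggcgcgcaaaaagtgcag

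Between 21939393 and 27306679 reads were counted on genes per library. The level of a gene is given as RPKM, that is counts per kb of merged exon relative to the library size, which was scaled by TMM, a method that sets the bulk of genes equal between libraries. The tissue was checked against marker lists, and every marker of spermatogonia, pachytene spermatocytes, spermatids, Sertoli cells, Leydig cells, macrophages and peritubular cells was detected. The summed RPKM of 6 markers of pachytene spermatocytes ran from 2340 to 2534, and that of 6 round spermatid markers from 708 to 758. That of 6 Sertoli cell markers ran from 234 to 272, of 6 Leydig cell markers from 229 to 286, of 6 spermatogonial markers from 39.5 to 45, of 4 peritubular cell markers from 17.3 to 22.3 and of 4 macrophage markers from 3.56 to 5.47. Between the libraries labelled DKO and WT, 3 of 6 Leydig cell markers were called higher by the test described below (2.06% of tested genes). They were Star, Cyp17a1 and Cyp11a1, with log2 fold changes of 0.51, 0.31 and 0.28. Another, Hsd3b1, was called lower, at -0.46 (1.16% of tested genes). The round spermatid marker Spaca1 was called lower in DKO than in P2KO, at -0.25 (0.598% of tested genes). Without the first DKO library the values were 0.08 for Cyp17a1, 0.07 for Cyp11a1 and -0.32 for Hsd3b1, and these calls were lost (adjusted p = 0.805, 0.811 and 0.086). DESeq2 on all 6 libraries did not call Star, Cyp17a1 or Cyp11a1 (adjusted p = 0.186, 0.662 and 0.526). The call of Star was kept under every other setting and without any 1 library. The value of Spaca1 was -0.15 without the first P2KO library (adjusted p = 0.614), and its call was lost as well with DESeq2 on all 6 libraries, with a correction for gene length and without either DKO library. The targeted genes gave a partial check of the labels. Padi2 had 47 and 64 counts in WT, 100 and 55 in P2KO and 59 and 83 in DKO, so that its counts did not separate the genotypes. Counts per gene do not show where in Padi2 the reads lie, and reads outside the replaced exon do not check the allele. By RT-PCR of salivary gland the study reports no Padi2 transcripts in P2KO and DKO mice. The reason for this difference was not tested. Padi4 had 20 and 43, 11 and 10, and 4 and 4 counts in the same order. By the edgeR test described below it was called lower in DKO than in WT (log2 fold change -2.94, adjusted p = 2.78e-04). It was not called in P2KO against WT (-1.63, adjusted p = 0.0959) or in DKO against P2KO (-1.31, adjusted p = 0.404). Its counts were thus lower in P2KO as well, where Padi4 was not edited. The genotypes named below are therefore the labels of the libraries.

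All 10 regulators were measured well above the floor of the counts, and each passed the filter on low counts. Fhl5 had the highest level, with a median of 177 over the 6 libraries (range 168 to 190), which was above that of 98.6% of the 20744 tested genes. Tcfl5 followed at 104 (101 to 110). Sox30 at 80 (74.0 to 82.1) and Tbpl1 at 76.3 (74.4 to 83.4) overlapped and were not separated. Rfx2 stood at 61.6 (53.0 to 63.6), Crem at 34.6 (32.9 to 35.3) and Rfx1 at 30.9 (28.1 to 32.3). Taf7l at 14.9 (14.2 to 15.9) and Mybl1 at 14.5 (13.6 to 15.2) again overlapped. Rfx3 was the lowest at 5.06 (4.84 to 5.39), and 62.0% of the tested genes had a lower level. With the length of the longest transcript in place of merged exons, Rfx2 moved from the fifth to the third place with a level of 109, because its annotated exons add up to far more than any single transcript.

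**Figure D1:**
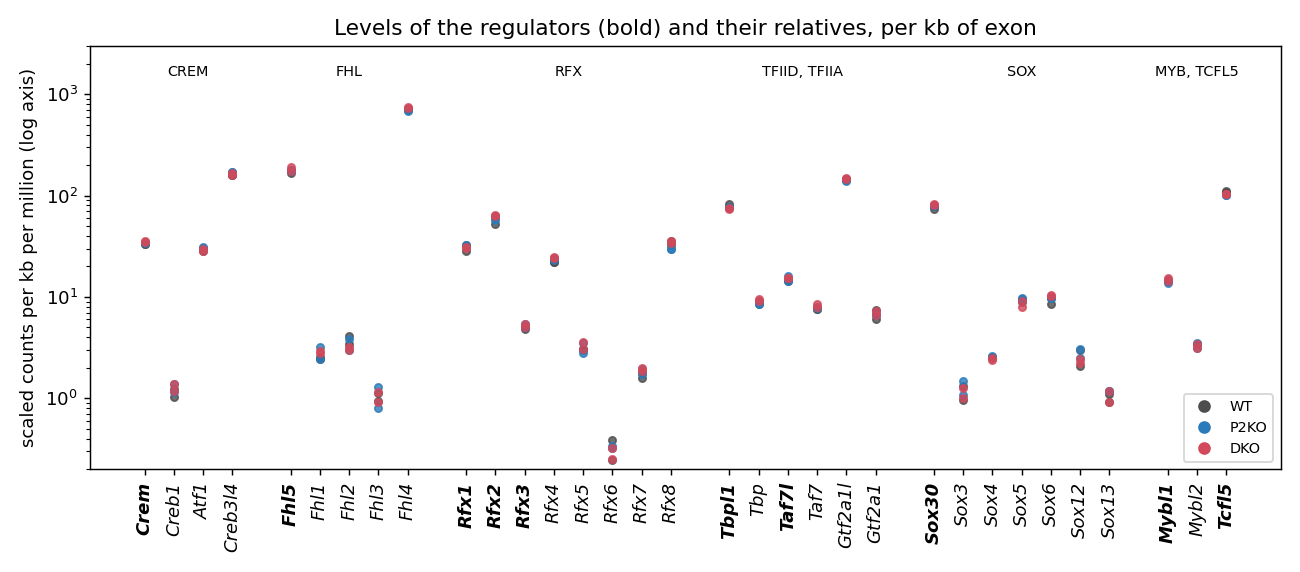
Levels in the 6 libraries, as RPKM (TMM-scaled counts per kb of merged exon) on a log axis, for the regulators (bold) and for genes of the same families. Each point is 1 library, coloured by genotype. Fhl5 lies between 168 and 190 and Rfx3 between 4.84 and 5.39, and the points of a regulator nearly coincide on this scale. Those of low relatives such as Rfx6 (0.245 to 0.389) spread more.

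Several regulators had a higher level per kb than relatives that are used more widely in the body. Tbpl1, at a median of 76.3, stood above Tbp at 8.82, and the range of Tbp (8.52 to 9.48) did not reach that of Tbpl1. The gap rests in part on length, since the merged exons of Tbp cover 13576 nucleotides and those of Tbpl1 3271, and Tbp had normalized counts between 2837 and 3159 against at least 5973 for Tbpl1. Taf7l at 14.9 stood above Taf7 at 7.84 (7.63 to 8.60). Mybl1 at 14.5 stood above Mybl2 at 3.42 (3.14 to 3.54), and Myb was too low to be tested. Crem at 34.6 lay far above Creb1 at 1.2 (1.03 to 1.39) and closer to Atf1 at 29.6 (28.5 to 31.3). Among the FHL genes the order was different, since Fhl4, a testis gene, had a level of 712 (681 to 752) against the 177 of Fhl5, whereas Fhl1, Fhl2 and Fhl3 had medians of 2.66, 3.31 and 1.02. Rfx2 had the highest level of the RFX genes, and Rfx8 at 33.1 (29.4 to 35.8) overlapped with Rfx1. The ranges given here are over all 6 libraries, and the levels describe these libraries without a test.

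The comparison of genotypes asked whether loss of Padi2, alone or with Padi4, went with a change in these regulators. Each pair of genotypes was tested with the quasi-likelihood method of edgeR, p-values were adjusted over all 20744 tested genes (Benjamini-Hochberg), and an adjusted p under 0.05 is referred to as a call. None of the 10 regulators was called in any comparison. Between the libraries labelled P2KO and WT, 0 of 10 were called, where 0.337% of all tested genes were (0.198% higher, 0.14% lower). Between those labelled DKO and WT, 0 of 10 were called against 3.22% of all tested genes (2.06% higher, 1.16% lower). Between DKO and P2KO 0 of 10 were, against 1.21% (0.607% higher, 0.598% lower). These shares include calls on chromosome 4, which holds the Padi genes and, of the regulators, only Fhl5. With its genes left out, 24, 501 and 169 genes were called in the 3 comparisons, against 70, 668 and 250 with them. The split of all calls between DKO and WT, 428 higher and 240 lower, depended on the scaling, with 367 and 322 under upper-quartile scaling and 291 and 241 with a correction for gene length, and without the second WT library it was 217 and 239. At an unadjusted p under 0.05 there was 1 regulator in P2KO against WT, Tcfl5 (8.57% of all tested genes), 1 in DKO against WT, Rfx2 (14.1%), and 0 in DKO against P2KO (11.8%). DESeq2 called 0 of 10, with all 6 libraries as with only the 2 genotypes, in each comparison. In whole testis, fewer cells of a type and less RNA per cell cannot be told apart.

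The 95% intervals of the log2 fold changes, taken gene by gene from the same fit, lay between -0.23 and 0.22 for P2KO against WT, between -0.22 and 0.26 for DKO against WT and between -0.16 and 0.24 for DKO against P2KO. The widest bounds correspond to a 1.17-fold decrease (Tcfl5 in P2KO) and a 1.2-fold increase (Rfx2 in DKO against WT). These bounds hold for the fit to all 6 libraries and move with the setting, since the fitted value of Rfx2 itself was 0.25 in DKO against WT without the first WT library. The standard errors ran from 0.0551 to 0.0820. Among the 5115 tested genes with a mean normalized count within the range of the regulators, 359 (7.02%) were called between DKO and WT, and the smallest change among those calls was 0.20 on the log2 scale. The corresponding numbers were 24 genes (0.469%) and 0.26 for P2KO against WT and 130 genes (2.54%) and 0.23 for DKO against P2KO. The median size of the called changes was 0.32 in DKO against WT, 0.43 in P2KO against WT and 0.33 in DKO against P2KO. In the same fit, without a correction for gene length, the largest change of a regulator was 0.13.

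**Figure D2:**
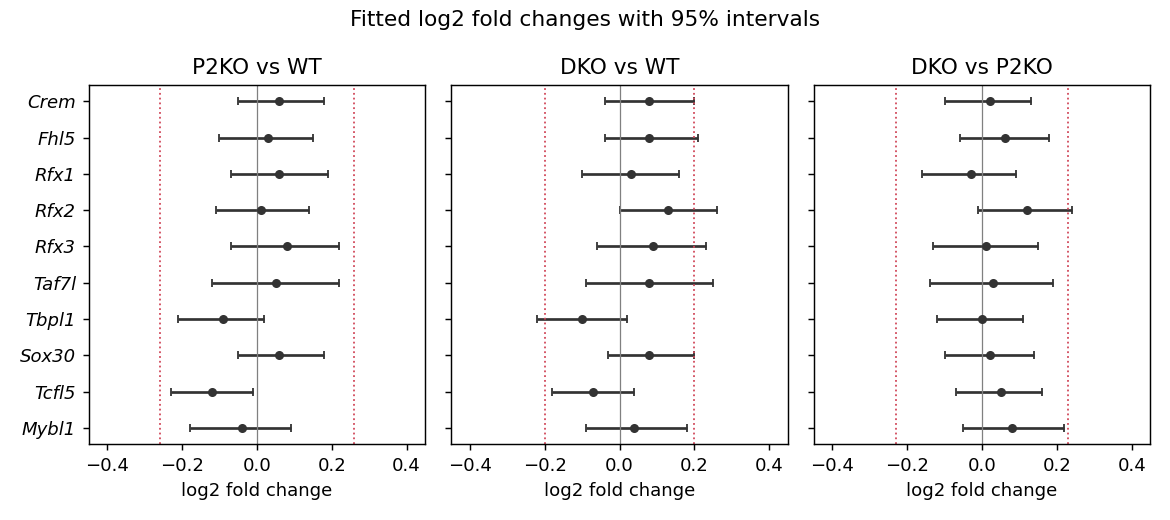
Fitted log2 fold changes of the 10 regulators (points) with their 95% intervals (bars) in the 3 comparisons. Red dotted lines mark the smallest change that was called in that comparison among genes counted as highly as the regulators (0.26, 0.20 and 0.23 on the log2 scale), and every point lies inside them. In DKO against WT some bars cross them, such as those of Rfx2 (to 0.26) and Tbpl1 (to -0.22), so that changes of that size are not excluded.

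Among the activators of round spermatids, Crem (ENSMUSG00000063889, chromosome 18) encodes both activating and repressing forms from alternative promoters and exons, which a count per gene does not separate. Its normalized count, that is the count after division by the scaled size of its library, with the geometric mean of the 6 sizes set to 1, was 4760 and 4850 in WT, 5070 and 4969 in P2KO, and 5109 and 5044 in DKO. Both WT libraries lay below the other 4. Relative to WT, edgeR gave log2 fold changes of 0.06 for P2KO (SE 0.0577, adjusted p = 0.832) and 0.08 for DKO (SE 0.0577, adjusted p = 0.600). Fhl5 (ENSMUSG00000028259, chr4:25199908-25242876, minus strand) encodes ACT, a LIM-domain protein that binds CREM and activates without the phosphorylation other CREB proteins need. It is the only regulator on the chromosome of the Padi genes, 115.7 Mb from Padi2. Its normalized counts were 4814 and 5106 in WT, 5006 and 5097 in P2KO and 5064 and 5455 in DKO, with overlap in every comparison, and the adjusted p was 0.951, 0.590 and 0.767 for P2KO and DKO against WT and for DKO against P2KO. The log2 fold change of Fhl5 in DKO against WT was 0.08 (SE 0.0597) and became 0.16 with a correction for gene length (adjusted p = 0.141).

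Rfx2 (ENSMUSG00000024206, chr17:56775897-56831013, minus strand), the RFX gene that spermatids need to form a flagellum, had the largest change in the fit without a correction for gene length. Its normalized counts were 11322 and 9516 in WT, 10250 and 10772 in P2KO and 11407 and 11365 in DKO. The 2 DKO libraries were nearly equal and lay above the other 4, and the 2 WT libraries were the highest and the lowest of those 4. Relative to WT the DKO libraries had a log2 fold change of 0.13 (SE 0.0626, unadjusted p = 0.0474, adjusted p = 0.345). It rested on which WT library was taken, being 0.01 without the second WT library and 0.25 without the first, where Rfx2 passed the threshold. With 1 WT library left, these fits take the spread from the other genotypes. With a correction for gene length it was 0.07 (adjusted p = 0.658), below that of Fhl5. Against P2KO the log2 fold change was 0.12 (SE 0.0625, adjusted p = 0.479). Rfx1 (ENSMUSG00000031706, chr8:84066834-84096992, plus strand), which is expressed in many tissues, had normalized counts of 5090 and 4441 in WT, 5075 and 4865 in P2KO and 4901 and 4806 in DKO. As for Rfx2, the second WT library was the lowest, and the WT values enclosed those of both knockouts. Rfx3 (ENSMUSG00000040929, chr19:27761721-28011166, minus strand), a regulator of cilia in several organs, had 1359 and 1311 in WT, 1360 and 1460 in P2KO and 1378 and 1459 in DKO. The WT libraries lay just below the others, with an adjusted p of 0.831 and 0.653 for P2KO and DKO against WT.

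Tbpl1 (ENSMUSG00000071359, chr10:22703879-22731938, minus strand) had normalized counts of 6247 and 6696 in WT, 5986 and 6137 in P2KO and 5973 and 6118 in DKO. Both WT libraries lay above the other 4. The log2 fold change was -0.09 for P2KO (SE 0.0578, adjusted p = 0.699) and -0.10 for DKO (SE 0.0579, adjusted p = 0.480) against WT by edgeR. Both comparisons use the same WT libraries, so that their resemblance is not independent. Taf7l (ENSMUSG00000009596, chrX:134460118-134476490, minus strand) is the only regulator on the X chromosome. Its normalized counts were 796 and 804 in WT, 875 and 781 in P2KO and 842 and 849 in DKO, and the spread of the P2KO libraries enclosed all the others. With the lowest counts of the 10 genes it had the widest standard error, 0.0820 in DKO against WT, and an adjusted p of 0.753.

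Sox30 (ENSMUSG00000040489, chr11:45980310-46017994, plus strand), which starts the haploid programme, had normalized counts of 5846 and 5439 in WT, 5995 and 5802 in P2KO and 6037 and 5919 in DKO. The DKO libraries lay above both WT libraries and the P2KO libraries overlapped with both groups, with a log2 fold change of 0.08 for DKO against WT (SE 0.0584, adjusted p = 0.578). Across the 6 libraries Sox30 and Tbpl1 moved in opposite directions, with a Pearson's r of log2 CPM of -0.98. This is the strongest of the correlations between the regulators. It describes 6 libraries that share their scaling and was picked from all pairs after the values were seen.

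Of the regulators of the spermatocyte stage, Tcfl5 (ENSMUSG00000038932, chr2:180621956-180642708, minus strand) had the smallest unadjusted p, 0.0369 in P2KO against WT. Its normalized counts were 8519 and 8470 in WT, 7824 and 7812 in P2KO and 8066 and 8085 in DKO. The 2 libraries of each genotype lay closer together than the counting error of 1.11% per library, and the 3 genotypes did not overlap. In P2KO against WT the log2 fold change was -0.12 (SE 0.0551, adjusted p = 0.543). It was -0.07 in DKO against WT (SE 0.0551, adjusted p = 0.618) and 0.05 in DKO against P2KO (SE 0.0551, adjusted p = 0.810). The standard error is wider than these replicates because the fit draws the spread of a gene toward that of all genes. The 3 genes with the pattern most like that of Tcfl5, among 12813 tested genes with a mean normalized count of at least 100, were Prim2 (r = 0.9969), 2610306M01Rik (r = 0.9937) and Pias4 (r = 0.9935), by Pearson's r of log2 CPM over the 6 libraries. Of these genes 30 reached an r above 0.95. Prim2, a subunit of DNA primase, had 586 and 581 in WT, 555 and 553 in P2KO and 565 and 565 in DKO. Mybl1 (ENSMUSG00000025912, chr1:9667415-9700209, minus strand) had 1893 and 1939 in WT, 1809 and 1918 in P2KO and 1924 and 2019 in DKO. Its WT libraries overlapped with both other groups, with an adjusted p of 0.923 for P2KO and 0.865 for DKO.

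**Figure D3:**
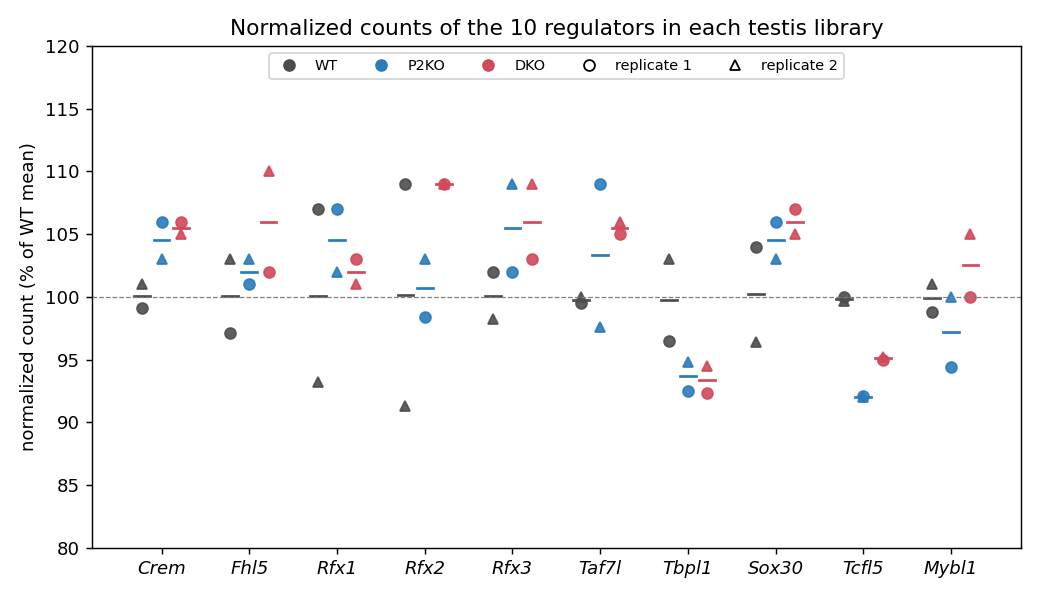
Normalized counts of each regulator in the 6 libraries as a percentage of the mean of its 2 WT libraries. Circles are replicate 1, triangles replicate 2 and short lines the mean of a genotype, and the axis runs from 80 to 120%. All values lie between 91.3% (Rfx2 in the second WT library) and 110% (Fhl5 in the second DKO library).

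Gene by gene, the libraries did not overlap for 4 of the 10 regulators between P2KO and WT, 2 of them higher in P2KO and 2 lower, where 37.5% of all tested genes did not overlap (18.7% higher, 18.8% lower). Between DKO and WT they did not overlap for 7, of which 5 were higher in DKO and 2 lower (43.2% of tested genes, 21.6% in each direction). Between DKO and P2KO they did not overlap for 3, all higher in DKO (42.8% of tested genes, 21.1% higher and 21.6% lower). With 2 libraries per genotype this is frequent across all genes. The median log2 fold change of the 10 regulators was 0.038, 0.079 and 0.023 in the 3 comparisons, against 0.004, -0.005 and -0.003 over all tested genes. Above 0 were 7 of the 10 in P2KO against WT (51% of all tested genes), 8 in DKO against WT (48.8%) and 8 in DKO against P2KO (49.2%). The median size of the change regardless of sign was 0.082 for the regulators in DKO against WT and 0.077 for genes of the same range of counts, and it was 0.031 against 0.072 in DKO against P2KO. Over the 6 libraries the coefficient of variation of the normalized counts ran from 2.75% (Crem) to 7.08% (Rfx2), with a median of 4.20% against 5.16% for the genes of the same range.

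No other gene of the annotation shared at least 95% identity over at least 150 nucleotides with a regulator, except for genes that overlap it on the other strand. Crem overlaps Gm6225, Tbpl1 overlaps Slc2a12, Tcfl5 overlaps Col9a3 and Rfx1 overlaps C330011M18Rik, over 8.01%, 12.4%, 7.39% and 0.65% of the exons of the regulator. The partners had at most 109, 95, 644 and 204 counts in a library, and the regulators at least 4225, 5545, 7338 and 4518. The strand setting behind the deposited counts is not stated in the sources used here.

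Relatives and partners of the regulators were examined as lists. The share of all tested genes that was called was 0.337% in P2KO against WT, 3.22% in DKO against WT and 1.21% in DKO against P2KO. Of 9 relatives and partners of CREM and FHL5, all were tested and 0 were called in any comparison. Fhl4 and Creb3l4, the latter a CREB-like factor of spermatids, were the most abundant of them per kb at 712 and 163, and their log2 fold changes in DKO against WT were 0.07 and 0.03. Of the 7 other RFX genes 0 were called in DKO against WT (3.22% of all tested genes), and 3 had an unadjusted p under 0.05 (14.1% of all tested genes). In the other comparisons 0 were called as well. The nearest to the threshold was Rfxap, a subunit of the RFX complex that controls MHC class II genes, with normalized counts of 388 and 312 in WT, 341 and 370 in P2KO and 255 and 272 in DKO. Its log2 fold change was -0.40 (SE 0.120, adjusted p = 0.0573) for DKO against WT. Rfx8 and Rfx4, at levels of 33.1 and 23.7, had log2 fold changes of 0.02 and 0.15 in DKO against WT. That of Rfx8 was -0.20 in P2KO against WT (adjusted p = 0.343) and 0.22 in DKO against P2KO (adjusted p = 0.128). Of 7 tested SOX and MYB relatives 0 were called, and Sox6 and Sox5, at 9.83 and 9.28, had log2 fold changes of 0.17 and -0.11 in DKO against WT. Of 16 other regulators of germ cells 0 were called in any comparison. The nearest to the threshold was Pou5f2 in P2KO against WT, with a log2 fold change of -0.34 (SE 0.0831, adjusted p = 0.0593). Kctd19 and Zfp541, partners in a complex of pachytene spermatocytes, stood at 164 and 73.4 per kb. Their log2 fold changes in DKO against WT were 0.14 and 0.09.

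Of 10 tested genes of the general transcription factors TFIID and TFIIA, with Gtf2b for TFIIB among them, 1 was called in DKO against WT, where 3.22% of all tested genes were (2.06% higher). It was Taf1, which encodes the largest TFIID subunit. Its normalized counts were 348 and 311 in WT, 389 and 416 in P2KO and 415 and 436 in DKO. Both WT libraries lay below the other 4. In DKO it was higher than in WT by 0.37 on the log2 scale (SE 0.108, adjusted p = 0.0482), and in P2KO the difference was 0.29 (SE 0.108, adjusted p = 0.389). The call of Taf1 was the closest to the threshold of those described here and was lost under 9 of the 12 other settings that kept all libraries, DESeq2 (adjusted p = 0.191 on all 6 libraries) and a correction for gene length (adjusted p = 0.148) among them, and without the second WT library or either DKO library. Gtf2a1l, the germ cell form of a TFIIA subunit, and Gtf2a2 were the most abundant of the list, at 146 and 22.5 per kb, and had log2 fold changes of 0.03 and -0.07.

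Genes that these regulators are known to switch on were examined next. Among 12 genes of late meiotic and haploid germ cells, of the kind that CREM and its partners activate, 2 were called lower in the libraries labelled DKO than in WT and 1 in those labelled P2KO. The background was 1.16% of tested genes called lower for DKO and 0.14% for P2KO. Tnp1, a transition protein that replaces histones in the spermatid nucleus, had normalized counts of 37307 and 39406 in WT, 29843 and 36183 in P2KO and 31280 and 33108 in DKO. It fell by 0.25 on the log2 scale in DKO (SE 0.0620, adjusted p = 0.0130). Prm1, a protamine, had 53483 and 57631 in WT, 44519 and 52452 in P2KO and 46997 and 48702 in DKO, and fell by 0.22 (SE 0.0586, adjusted p = 0.0302). Tnp2, the other transition protein, had 77887 and 82457 in WT, 64884 and 66325 in P2KO and 71857 and 73913 in DKO. It was called in P2KO, with a log2 fold change of -0.29 (SE 0.0495, adjusted p = 7.62e-04), and not in DKO, at -0.14 (adjusted p = 0.143). For these 3 genes both WT libraries lay above the other 4. Prm2, the most abundant gene of the list at 5680 per kb, had log2 fold changes of -0.16 and -0.14 (adjusted p = 0.271 and 0.151). The median log2 fold change of the list was -0.077 in P2KO and -0.042 in DKO.

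The summed level of 6 markers of elongating spermatids, 5 of which belong to this list, was 20704 and 21612 in WT, 17422 and 19362 in P2KO and 18832 and 18960 in DKO, whereas that of the 6 round spermatid markers ran from 708 to 758 in all genotypes. Most of the first sum is made up of Tnp1, Prm1, Tnp2 and Prm2 themselves. The other members, Odf1 and Oaz3, had log2 fold changes of -0.05 and 0.04 in DKO against WT (adjusted p = 0.747 and 0.831) and of -0.05 and -0.04 in P2KO against WT (adjusted p = 0.859 and 0.890). The part of the number of elongating spermatids in the fall of Tnp1, Prm1 and Tnp2 was not tested. Tnp1 and Prm1 are short, with 437 and 571 nucleotides of exon. With a correction for gene length their log2 fold changes in DKO were -0.15 (adjusted p = 0.194) and -0.12 (adjusted p = 0.325), and the calls were lost. Tnp2, with 554 nucleotides, kept its call in P2KO with the same correction (log2 fold change -0.27, adjusted p = 3.24e-04). The calls of Tnp1 and Prm1 were lost as well with DESeq2 on all 6 libraries (adjusted p = 0.393 and 0.0665) and without either DKO library, and that of Prm1 also without the second WT library. With DESeq2 on the 2 genotypes both were kept (adjusted p = 0.00289 and 0.0236). The call of Tnp2 in P2KO was lost without the first P2KO library (log2 fold change -0.27, adjusted p = 0.0784).

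Among 11 genes of the piRNA pathway, many of them driven by A-MYB, 2 were called higher in the libraries labelled DKO than in WT, where 2.06% of tested genes were. Tdrd1 and Tdrd6 encode Tudor proteins of the germ granules. Tdrd1 had normalized counts of 4149 and 3731 in WT, 4564 and 4429 in P2KO and 4719 and 4699 in DKO, with a log2 fold change of 0.26 (SE 0.0614, adjusted p = 0.0101). Tdrd6 had 20953 and 18348 in WT, 19104 and 20887 in P2KO and 23126 and 23195 in DKO, with a log2 fold change of 0.24 (SE 0.0588, adjusted p = 0.0143). In both genes the second WT library was the lowest and the DKO libraries lay above all others. Without the second WT library the log2 fold changes were 0.18 and 0.14 and the calls were lost, as they were without either DKO library. Mael, the most abundant of the list at 635 per kb, had a log2 fold change of -0.02, and in P2KO against WT 0 of the 11 genes were called.

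Of 14 genes of the kind that RFX proteins switch on, referred to as cilium genes, 2 were called higher in the libraries labelled DKO than in WT, where 2.06% of all tested genes were. All belong to cilia and flagella except Hist1h1t, the testis linker histone, which had the lowest log2 fold change of the list, -0.32 (adjusted p = 0.425). Hydin, whose start site is shown above, encodes a very large protein of the central pair of the axoneme. It had normalized counts of 5413 and 4465 in WT, 5194 and 5922 in P2KO and 6049 and 7000 in DKO, with a log2 fold change of 0.40 (SE 0.0744, adjusted p = 5.64e-04). Ift122, a component of the transport complex IFT-A, had 6658 and 5998 in WT, 6368 and 6311 in P2KO and 7477 and 7183 in DKO, with a log2 fold change of 0.21 (SE 0.0593, adjusted p = 0.0360). The DKO libraries lay above the other 4 in both genes. These are long genes, with 18037 and 10319 nucleotides of exon. With a correction for gene length the call of Ift122 was lost (log2 fold change 0.12, adjusted p = 0.341) and that of Hydin was kept at a smaller log2 fold change of 0.23 (adjusted p = 0.0274). The call of Hydin was lost with DESeq2 (adjusted p = 0.206 on all 6 libraries) and without the second DKO library (log2 fold change 0.29, adjusted p = 0.134). The call of Ift122 was lost as well with upper-quartile scaling (adjusted p = 0.0563). On the 2 genotypes alone it was lost with DESeq2 (adjusted p = 0.118) and with edgeR (adjusted p = 0.073). It was also lost without the second WT library, the first P2KO library or either DKO library. Ift172 and Ift140, the most abundant of the list at 79.5 and 75.5 per kb, had log2 fold changes of 0.09 and 0.19 (adjusted p = 0.487 and 0.0828). The median over the 14 genes was 0.057 in DKO and 0.000 in P2KO, and 0 were called in P2KO against WT or in DKO against P2KO.

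**Figure D4:**
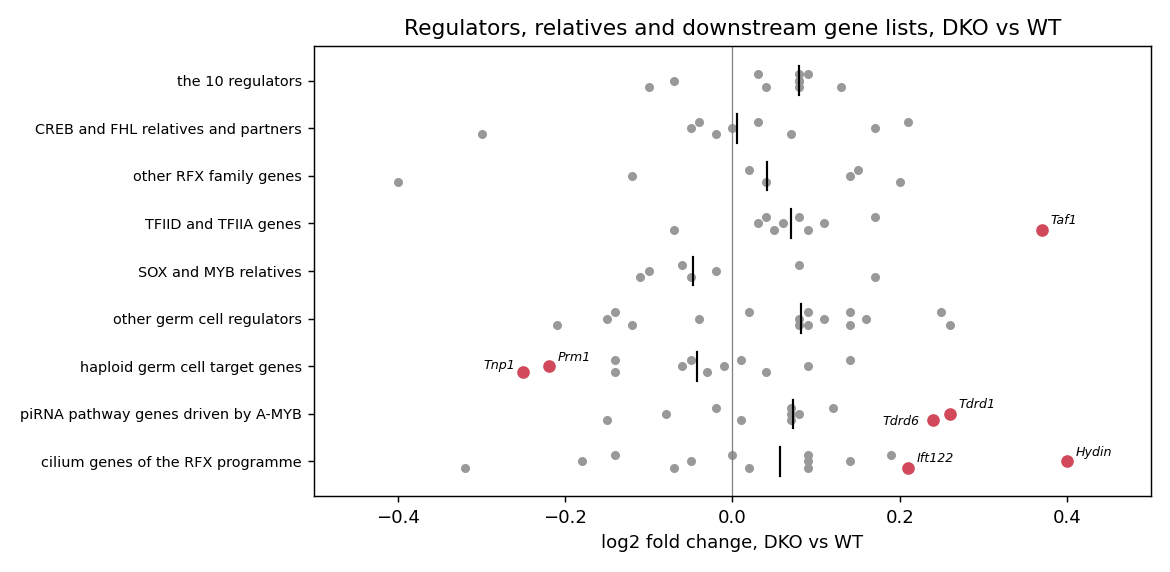
Log2 fold changes between the libraries labelled DKO and WT for the tested genes of each list. Each point is 1 gene, red points with names are genes with an adjusted p under 0.05 and black bars are the median of a list. The 10 regulators lie between -0.10 and 0.13, and the called genes between -0.25 (Tnp1) and 0.40 (Hydin).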

How the data were processed

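RNA was extracted from snap-frozen testes, selected for poly(A) and made into strand-specific libraries. Per the labels and the methods of the study, reads were trimmed (Trim Galore) and mapped to GRCm38 by STAR, whose gene counts the authors deposited unnormalized and unfiltered. Tool versions and the strand column taken are not given in the sources used here. All 55536 gene identifiers were found in GENCODE release M21, which gave symbols, positions and exon lengths.

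The statistics were computed in edgeR 4.0.16 under R 4.3.3. After filterByExpr (min.count 10) and TMM scaling, all 6 libraries entered 1 quasi-likelihood fit with a term for genotype, and Benjamini-Hochberg adjustment covered every tested gene. With 2 libraries per genotype no exact permutation test can pass 0.05 and no library can be tested as outlying. Standard errors are the absolute log2 fold change divided by the square root of F, and 95% intervals use the degrees of freedom of the fit. The fit was tested on simulated data for DKO against WT with 20430 genes, in which it called 94.4% of genes with a log2 change of 2 and 75.2% of those with a change of 1. Changes as small as those fitted for the regulators were not simulated.

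The regulators, the gene lists and the motifs were chosen with earlier results of these data known. Named are the 10 regulators, the called genes and the 2 genes of highest level of each list, the genes most like the regulator with the smallest p, and Padi2 and Padi4. Close relatives of the regulators were named in addition for their levels, outside that rule. Rfxap, Pou5f2, Hist1h1t, Odf1 and Oaz3 were named after their values were seen. Markers are otherwise given as sums except for those called, and Taf7l2 was not found in the annotation. Sequences of start sites are from RefSeq (GRCm38.p6). Alternatives were other scaling (RLE, upper quartile), no filter or a minimum mean count of 50, prior count 2, a replicate block, DESeq2 1.42.0, edgeR on 2 genotypes, an offset for gene length, genes off chromosome 4 and leaving out each library. Leaving out a library leaves 1 in its genotype, so that the replicates of the other genotypes supply the spread. Calls kept, lost or gained there describe the fit and do not test that genotype.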

Additional observations from a re-analysis of the deposited data

How the results depend on the processing

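Of the 536 log2 fold changes of the 10 regulators under the alternatives, 518 kept both sign and call, 17 changed sign and 1 passed the threshold. The last was that of Rfx2 in DKO against WT, which ran from 0.01 to 0.25 when a library was omitted and was called without the first WT library. With a correction for gene length, alone or with the replicate block, the log2 fold change was -0.02 for Rfx2 in P2KO against WT, -0.01 for Rfx1 and -0.02 for Rfx3 in DKO against WT, and -0.03 for Rfx3 in DKO against P2KO, in each case from a positive value. When each library was omitted, the log2 fold change in P2KO against WT ran from -0.02 to 0.07 for Fhl5, from -0.03 to 0.16 for Rfx1, from -0.11 to 0.14 for Rfx2 and from -0.03 to 0.12 for Taf7l. That of Rfx1 in DKO against WT ran from -0.07 to 0.12, and those in DKO against P2KO from -0.04 to 0.07 for Rfx3, from -0.04 to 0.11 for Taf7l and from -0.40 to 0.29 for Padi2. The number of regulators called was 0 to 1 in DKO against WT and 0 in the other comparisons. With the longest transcript as length the median RPKM was 69.6 for Crem, 47.7 for Rfx1, 109 for Rfx2, 6.1 for Rfx3, 17.4 for Taf7l, 86.9 for Tbpl1, 148 for Tcfl5 and 15.7 for Mybl1.

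Over all genes, 70 were called in P2KO against WT, 668 in DKO against WT and 250 in DKO against P2KO. In the first comparison the number was 140 without a filter, 41 with DESeq2 on all 6 libraries, 40 with DESeq2 on the 2 genotypes and 24 with genes off chromosome 4, where fewer genes were tested. In the second it was 403 and 296 with DESeq2 on 6 libraries and on 2 genotypes. In the third it was 162 with DESeq2 on all 6 libraries and 579 with edgeR on the 2 genotypes. Leaving out each library gave 53 to 311, 250 to 1065 and 108 to 622 genes. The cause of these shifts was not tested.

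The replicate numbers did not pair the samples, since deviations from the genotype means correlated at -0.0572 between WT and P2KO, 0.0574 between WT and DKO and -0.0502 between P2KO and DKO over 20744 genes. With the replicate block, 45 genes were called in P2KO against WT, and the calls of Taf1, which left 0 in the TFIID and TFIIA list, and of the markers Cyp11a1 (adjusted p = 0.0716) and Spaca1 (adjusted p = 0.0712) were lost.

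The counts of called genes per list moved as follows. In P2KO against WT, 1 of the other germ cell regulators was called with upper-quartile scaling, without a filter and with the length correction, and 4 haploid genes without a filter. In DKO against WT, 1 of the other RFX genes was called with upper-quartile scaling and without a filter, and 0 TFIID and TFIIA genes were called with these, with DESeq2, with edgeR on 2 genotypes, with both length corrections and with genes off chromosome 4. In that comparison 4 haploid genes were called without a filter and 0 with DESeq2 on all 6 libraries and both length corrections, and 1 SOX or MYB relative with both length corrections. Cilium genes called there were 1 with upper-quartile scaling, DESeq2 on all 6 libraries, edgeR on 2 genotypes and both length corrections, and 0 with DESeq2 on 2 genotypes. In DKO against P2KO, DESeq2 on 2 genotypes called 1 other germ cell regulator, 1 haploid gene, 1 piRNA gene and 3 cilium genes, and edgeR on 2 genotypes called the same numbers except for 4 cilium genes and, in addition, 2 RFX genes. Without a filter 1 RFX gene, 1 haploid gene, 1 piRNA gene and 2 cilium genes were called there. The length correction gave 1 SOX or MYB relative and 1 haploid gene, with 1 piRNA gene in addition without the block and 1 other germ cell regulator with it. Leaving out each library gave, in P2KO against WT, 0 to 3 haploid genes and 0 to 1 each of the other germ cell regulators, piRNA genes and cilium genes. In DKO against WT it gave 0 to 3 haploid and cilium genes, 0 to 2 piRNA genes and 0 to 1 of the RFX, TFIID and TFIIA, SOX and MYB, and other germ cell lists. In DKO against P2KO it gave 0 to 4 cilium genes, 0 to 2 RFX genes and other germ cell regulators, and 0 to 1 haploid and piRNA genes.

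With 2 libraries per genotype the spread of a single gene is poorly known, and counting error per library was at most 3.47% for a regulator (Taf7l). Among genes with counts in the range of the regulators, no change below 0.2 on the log2 scale was called in the 3 comparisons.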
